A study of Mus musculus with 11 samples.

Results

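The Reg family lectins are small secreted proteins of the pancreas and gut, and the 6 mouse genes described here are Reg1, Reg2, Reg3a, Reg3b, Reg3d and Reg3g. They were chosen by gene name, and each symbol matched 1 row among the 54532 genes of the pancreas table and 1 row among the 46078 genes of the adipose table. RNA was sequenced from pancreas and epididymal fat in a study of obesity-related alcohol-induced acute pancreatitis (OA-AP). Control mice were lean wild type C57BL/6 animals (C57BL/6J in the study's methods) fed for 12 weeks on chow with 10 kcal percent fat and given saline. OA-AP mice, called Model in the labels, were of the same strain, genotype and age (16 weeks), were fed for 12 weeks on a diet with 60 kcal percent fat, and received 2 intraperitoneal injections of ethanol at 2 g/kg set 1 h apart. By the study's methods the mice were male and tissues were taken 12 h after the first injection. Pancreas was represented by 2 control and 3 OA-AP libraries, and adipose by 3 control and 3 OA-AP libraries. Diet, ethanol and the pancreatitis that follows them cannot be told apart in this design.

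The pancreas libraries held 14188832 to 17238919 counts on genes and the adipose libraries 20825177 to 27928097. The acinar secretory list, 39 genes for digestive enzymes and other zymogen granule proteins, made up 74.9% and 76.5% of the counts in the control pancreas libraries and 58.0% to 60.1% in the OA-AP ones. In adipose the same list took at most 0.00202% of the counts in 5 libraries, whereas adipose control replicate 2 stood apart with 0.959%. The Reg shares, the tissue comparison and the counts of list genes called in adipose are therefore given with and without that library, and values of single genes with all libraries. Libraries of one group differed by more than counting noise, and the labels do not say that each came from a separate animal, so p-values measure the spread between these libraries.

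Reg proteins carry a single C-type lectin domain behind a signal peptide. Reg1 (also called pancreatic stone protein) and its paralog Reg2 are made by acinar cells, while Reg3b, the mouse pancreatitis-associated protein, gave the family its link with acute pancreatitis. Reg3g, together with Reg3b, is best known from the intestine, where it acts on bacteria, and induction of Reg3 genes by IL-22 and IL-6 through STAT3 is well described in epithelia.

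The 6 genes lie within 98.2 kb of mouse chromosome 6 in GRCm38, with no other listed gene between them. Reg3b (ENSMUSG00000071356) comes first at chr6:78370657-78373466 on the plus strand, followed by Reg3d (ENSMUSG00000068341) at chr6:78375874-78378865 on the minus strand and Reg3a (ENSMUSG00000079516) at chr6:78380709-78383827 on the plus strand. Reg2 (ENSMUSG00000023140) at chr6:78395623-78408106 and Reg1 (ENSMUSG00000059654) at chr6:78422711-78428667 follow on the plus strand, and Reg3g (ENSMUSG00000030017) at chr6:78466269-78468872 on the minus strand closes the cluster. All 6 are annotated as protein coding. The nearest listed gene on either side was a processed pseudogene, Gm5576 with 0 counts and Gm21392 with 4 counts over the 5 pancreas libraries. Their transcripts were 52.4% to 68.9% identical between members, and the longest exact run shared by any pair was 35 bases (Reg3b and Reg3g), shorter than the 150 bp reads.

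The promoter sequences below are from RefSeq (GRCm38.p6) and cover the 250 bases before the start that RefSeq gives for each gene. For Reg1 (78425983), Reg2 (78405155) and Reg3b (78370885) this start lies inside the gene extent given above. Their windows therefore lie wholly or partly within that extent, while the start of Reg3d is the same in both. The members shown are those whose windows held 1 of 2 motifs of factors tied to acinar cells and to inflammation. They differ widely in how their RNA changed. Capitals mark TATA boxes (TATAAA), STAT-type matches (TTCNNNGAA) and matches to the joined E box and TC box of PTF1, the factor that drives acinar enzyme genes (CANCTGNNNNNNTTCCCA), and both strands were searched.
Reg1 promoter, chr6:78425733-78425982, plus strand: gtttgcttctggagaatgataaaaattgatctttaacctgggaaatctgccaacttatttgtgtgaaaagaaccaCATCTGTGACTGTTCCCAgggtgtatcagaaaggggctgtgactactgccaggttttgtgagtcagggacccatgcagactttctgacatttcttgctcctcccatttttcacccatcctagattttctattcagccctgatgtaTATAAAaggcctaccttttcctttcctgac
Reg2 promoter, chr6:78404905-78405154, plus strand: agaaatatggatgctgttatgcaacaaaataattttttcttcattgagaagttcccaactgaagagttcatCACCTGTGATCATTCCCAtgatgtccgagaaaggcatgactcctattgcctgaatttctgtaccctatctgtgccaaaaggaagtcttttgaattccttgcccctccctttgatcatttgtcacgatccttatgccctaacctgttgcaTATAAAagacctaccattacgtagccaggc
Reg3b promoter, chr6:78370635-78370884, plus strand: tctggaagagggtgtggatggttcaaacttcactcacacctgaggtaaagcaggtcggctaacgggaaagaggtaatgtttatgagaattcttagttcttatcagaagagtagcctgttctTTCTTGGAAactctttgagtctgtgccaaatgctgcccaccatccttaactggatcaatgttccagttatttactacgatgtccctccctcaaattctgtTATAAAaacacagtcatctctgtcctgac
Reg3d promoter, chr6:78378866-78379115, minus strand: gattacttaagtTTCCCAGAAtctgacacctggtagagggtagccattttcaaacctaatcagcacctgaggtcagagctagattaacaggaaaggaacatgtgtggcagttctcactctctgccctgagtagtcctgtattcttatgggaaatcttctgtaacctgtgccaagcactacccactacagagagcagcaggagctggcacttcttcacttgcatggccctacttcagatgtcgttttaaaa
The PTF1-type letters began 175 bases before the start in Reg1 and 179 bases before it in Reg2, and in no other member. Of 32851 RefSeq promoter windows of 300 bases (250 before the start and 50 after), 10 held that pattern (0.0304%), and its letters were chosen with these sequences in view. STAT-type letters stood at -129 in Reg3b and -238 in Reg3d, against 8.3% of all windows with a match. They were in no other member, and so not in Reg3a or Reg3g. A TATA box 27 to 30 bases before the start was found in Reg1, Reg2, Reg3b and Reg3g, and TATAAA occurred on either strand in 13.6% of all windows. Promoter identity was highest for Reg3b and Reg3g (69.0%) and ranged from 49.9% to 58.5% over the other 14 pairs. These matches describe the letters of the windows only, and no match means only that the letters are not in that window.

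In the pancreas, 5 of the 6 members were higher in OA-AP than in control, with rises from 7.44-fold (Reg3d) to 296-fold (Reg3a), and Reg1 alone did not pass the test. Of all 12884 genes tested by edgeR's quasi-likelihood test, 16.2% were called higher (29.8% in either direction) at an adjusted p under 0.05 and a fold of at least 1.5. All 6 members passed the filter on low counts. Levels are given as CPM, counts brought to a common library size with TMM factors so that a few very abundant genes do not set the scale, and fold changes are OA-AP over control.

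**Figure D1:**
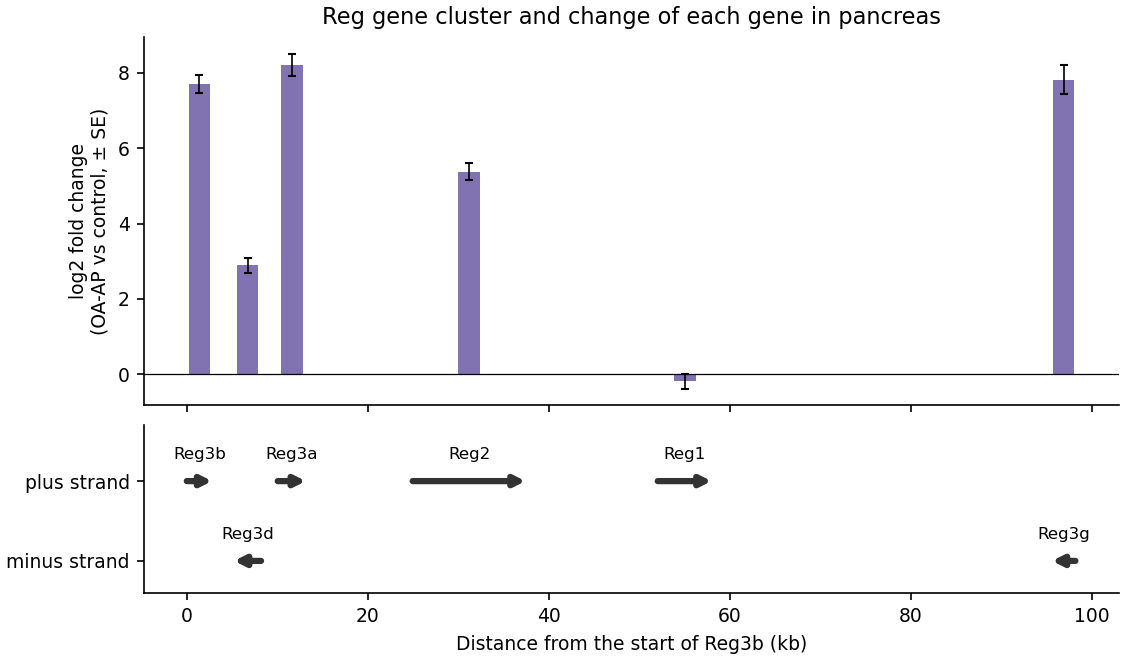
Map of the Reg gene cluster (lower panel, arrows show gene extent and strand, x axis in kb from the start of Reg3b) with the log2 fold change of each gene in pancreas above it (bars, ± SE, edgeR with TMM scaling). Reg3b, Reg3a and Reg3g rose by 7.70 to 8.21, Reg2 by 5.37 and Reg3d by 2.89, while the value of Reg1 was -0.19 and turned to 0.52 when libraries were scaled by their totals alone.

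Reg1 was by far the most abundant member in control pancreas, and its change did not pass the test. Its counts were 152125 and 138509 in control and 179376, 226081 and 249499 in OA-AP, which correspond to 13054 and 13811 CPM against 9417, 12933 and 13049 CPM. All 3 OA-AP values were below the control range, replicate 3 only just, and the log2 fold change was -0.19 (SE 0.19, 95% interval -0.63 to 0.25, edgeR adjusted p = 0.482). Scaling by library totals alone turned the sign, with a log2 fold change of 0.52 (edgeR adjusted p = 0.0137) that remained below the fold threshold of 1.5. That scaling also moved the median of all tested genes from 0.04 to 0.75 and the share of higher genes among the calls from 54.5% to 92% (49.3% of the tested genes were then called, 45.4% as higher), so Reg1 lay below the median gene under either scaling.

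Reg2, the paralog that shares the PTF1-type promoter letters with Reg1, behaved differently. It had 3464 and 2294 counts in control and 199906, 208869 and 195177 in OA-AP, or 297 and 229 CPM against 10495, 11949 and 10208 CPM. The groups were far apart, with a 41.4-fold rise (log2 fold change 5.37, SE 0.23, edgeR adjusted p = 2.26e-05). In OA-AP its CPM lay in the range of Reg1, whereas in control Reg1 was higher in both libraries.

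Among the Reg3 genes, Reg3b rose from 627 and 498 counts in control to 186677, 193509 and 216575 in OA-AP. The mean level was 51.7 ± 2.93 CPM in control (SD, n = 2) and 10732 ± 817 CPM in OA-AP (SD, n = 3). The log2 fold change was 7.70 (SE 0.23, edgeR adjusted p = 6.28e-06), and Reg3b had the smallest p of all genes tested. Reg3a, a close relative in the same gene block, ranked 2 by p. It had 83 and 84 counts in control and 36016, 37993 and 53993 in OA-AP, or 7.12 and 8.38 CPM against 1891, 2173 and 2824 CPM. This was the widest fold change of the family (log2 8.21, SE 0.30, edgeR adjusted p = 1.5e-05).

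Reg3g, the bactericidal lectin of the intestine, was also low in control. Counts were 70 and 105 in control and 32519, 26107 and 44422 in OA-AP, giving 6.01 and 10.5 CPM against 1707, 1493 and 2323 CPM. The rise was 224-fold (log2 7.81, SE 0.39, edgeR adjusted p = 4.28e-05), with the largest SE of the family. Reg3d, the mouse relative of the islet neogenesis-associated protein of hamster, had a higher CPM in control than the other Reg3 genes. Its 3373 and 2982 control counts compared with 35105, 36516 and 49977 in OA-AP, or 289 and 297 CPM against 1843, 2089 and 2614 CPM. The change was smaller than in the other 3 Reg3 genes (log2 2.89, SE 0.20, edgeR adjusted p = 0.000102). Its 95% interval of 2.43 to 3.36 lay apart from theirs, the nearest of which began at 6.92.

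**Figure D2:**
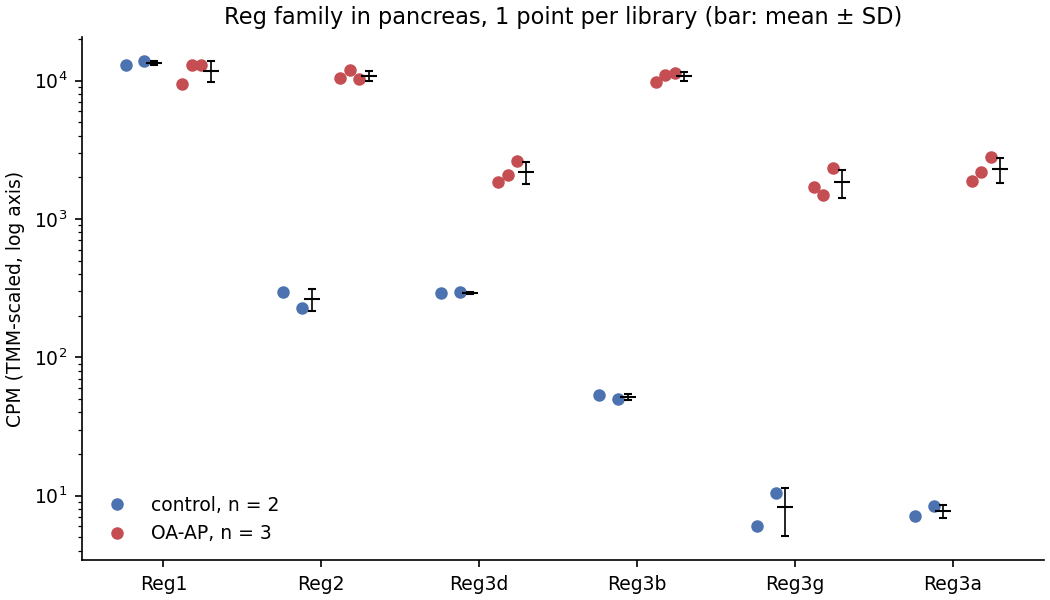
CPM of each Reg gene in the 5 pancreas libraries (log axis, 1 point per library, blue control, red OA-AP, black bar mean ± SD). The groups lie far apart for every gene except Reg1, and the OA-AP levels form a high set (Reg1, Reg2 and Reg3b, 9417 to 13049 CPM) and a lower set (Reg3d, Reg3g and Reg3a, 1493 to 2824 CPM).

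For these 5 genes every OA-AP library lay above every control library. Groups that did not overlap in that direction were found for 32.9% of all tested genes, so separation alone was common in these data. Large changes were less common, since 79 of 12884 genes (0.613%) were called with a log2 fold change of at least 5. Of the 5 members, Reg2, Reg3a, Reg3b and Reg3g were among those genes and Reg3d (2.89) was not. The call of 5 members higher held under DESeq2 (which called 23.7% of its 15063 genes), under every other scaling and filter, and with any 1 pancreas library left out. Without either control library, 1 control remained and the spread came from the OA-AP libraries alone.

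The changes altered the make-up of the family. In control, 95.2% and 95.9% of all Reg counts came from Reg1, against 26.8% to 31.0% in OA-AP. Reg2 went from between 1.59% and 2.17% to between 24.1% and 29.9%, and Reg3b from between 0.345% and 0.393% to between 26.5% and 27.9%. The other Reg3 genes stayed minor, at 5.21% to 6.67% (Reg3a), 5.01% to 6.17% (Reg3d) and 3.58% to 5.49% (Reg3g) of the Reg counts in OA-AP. A pancreas in which almost all Reg RNA came from 1 gene thus compared with one in which Reg1, Reg2 and Reg3b contributed similar numbers of counts.

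**Figure D3:**
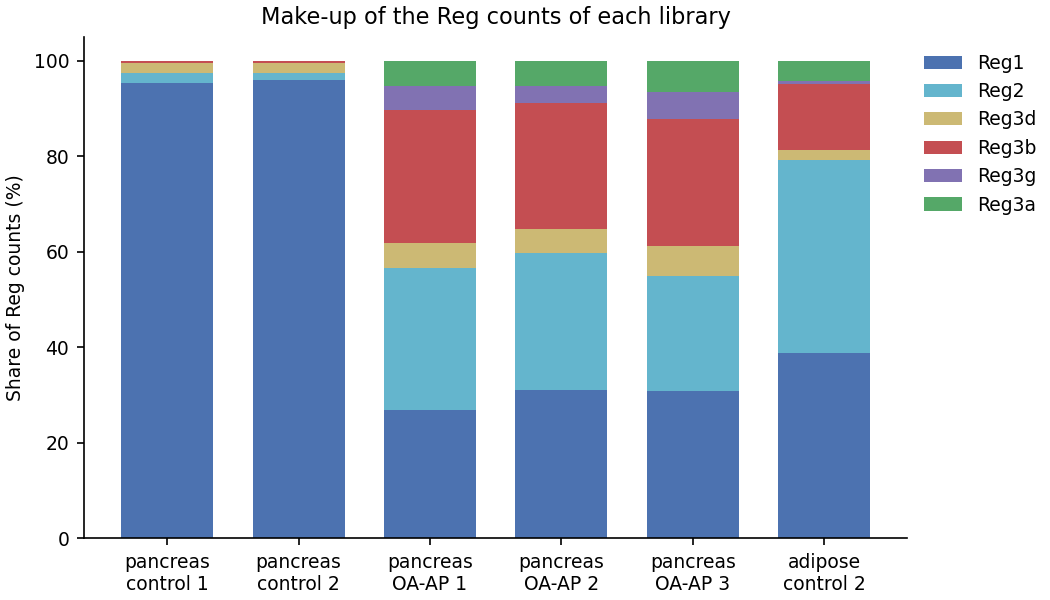
Share of the summed Reg counts contributed by each member (stacked bars, percent) in the 5 pancreas libraries and in adipose control replicate 2. Reg1 fills at least 95.2% of the bar in control pancreas, at most 31.0% in OA-AP pancreas, and 38.9% in the adipose library.

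Levels of different genes can be compared only per length, and with the gene lengths in the deposited table the control order was Reg1 (14859 CPM per kb), Reg3d (375), Reg2 (276), Reg3b (45.3), Reg3a (9.39) and Reg3g (3.90), with no overlap between neighbours. In OA-AP the means were 13053 CPM per kb for Reg1, 11433 for Reg2, 9398 for Reg3b, 2790 for Reg3d, 2783 for Reg3a and 871 for Reg3g. Reg1 and Reg2 overlapped there, as did Reg3d and Reg3a. The order depended on the length used. With the longest protein-coding transcript, which is 771 bases for Reg3g in place of the deposited 2114, the OA-AP order opened with Reg2 (15593 CPM per kb), Reg3b (13707) and Reg1 (13053), and Reg3g reached 2388 and overlapped with Reg3a. Reg3b and Reg1 also overlapped, and in control the ranges of Reg2 and Reg3d overlapped, as did those of Reg3g and Reg3a, with Reg3g then having the higher mean.

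As a part of the whole library, Reg transcripts took 1.09% and 1.00% of the counts in control and 4.63%, 5.14% and 4.70% in OA-AP. The mean went from 1.05% ± 0.0571 (SD, n = 2) to 4.82% ± 0.277 (SD, n = 3), a 4.61-fold difference with no overlap between groups (two-sided exact permutation test, p = 0.1, the smallest p that 2 against 3 libraries allow). Without Reg1, the other 5 members rose from 0.0466% to 3.39% of the counts. In bulk tissue, a change in the number of cells of one type and a change of RNA per cell cannot be told apart.

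The acinar secretory list was mostly lower in CPM. Of 38 acinar secretory genes tested, 23 were called lower and 1 higher by edgeR, and the median log2 fold change was -1.20 beside 0.04 for all tested genes. Of all 12884 genes tested, 13.5% were called lower and 16.2% higher. Scaled by library totals, 12 were lower and 3 higher, while 45.4% of all tested genes were called higher (49.3% in either direction). The phospholipase gene Pla2g1b (-2.55, SE 0.17), the trefoil factor gene Tff2 (-2.10, SE 0.16), the bile salt-dependent lipase gene Cel (-1.62, SE 0.18) and the lipase gene Pnlip (-1.62, SE 0.18) had the smallest p among the genes called, with edgeR adjusted p from 9.63e-05 to 0.000566. The gene called higher, named after its value was seen, was Cuzd1, a zymogen granule membrane protein (0.83, edgeR adjusted p = 0.00831), and it was not called without either control library.

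Set against 1000 counts of the acinar list in the same library, a ratio that needs no scaling factor, Reg counts were 14.5 and 13.1 in control and 79.8, 85.8 and 78.2 in OA-AP. The 5.88-fold difference had no overlap between groups (two-sided exact permutation test, p = 0.1, the smallest this design allows). On this scale Reg1 was also above its control range, with 12.6 to 13.8 against 21.4 to 26.6 counts per 1000 acinar counts, or 1.82-fold. The reference itself fell, from 74.9% and 76.5% of the counts in control to 58.0% to 60.1% in OA-AP. All ratios on this scale include that fall. The ratios of the other members were 15.4-fold for Reg3d, 85.7-fold for Reg2, 430-fold for Reg3b, 471-fold for Reg3g and 614-fold for Reg3a. The order of the members by size of change was the same as in CPM except that no member lay below control.

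**Figure D4:**
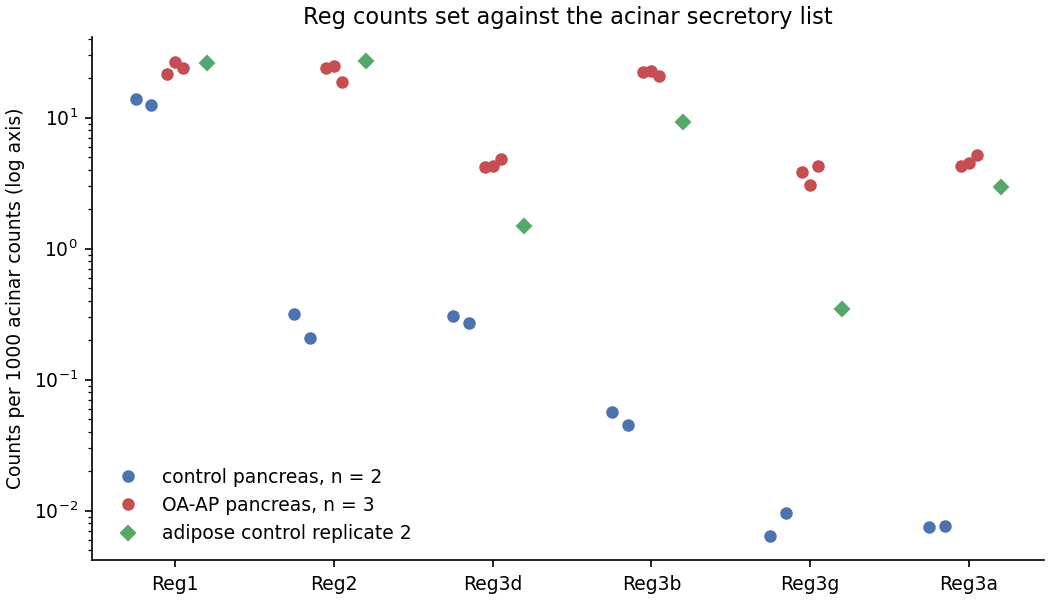
Counts of each Reg gene per 1000 counts of the acinar secretory list (log axis) in control pancreas (blue, 2 libraries), OA-AP pancreas (red, 3 libraries) and adipose control replicate 2 (green diamond). In the adipose library Reg1 (26.3) lies within and Reg2 (27.3) above the OA-AP range, while the 4 Reg3 genes fall between control and OA-AP pancreas.

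Markers of other cells that could hold Reg RNA were read beside these changes. Of 11 islet genes tested, Iapp and Chga were called higher and Pdx1 lower, and their summed level was 1001 to 1225 CPM in control and 1372 to 1666 CPM in OA-AP. Of 7 duct genes tested, 1 was called higher and 2 lower. Among all tested genes 16.2% were called higher and 13.5% lower. The duct list of 8 summed to 244 to 249 CPM in control and 167 to 266 CPM in OA-AP. Of 6 intestinal epithelium markers, Sis, Fabp2 and Cdh17 had 0 counts in all 5 pancreas libraries, and the summed level of the list was at most 1.88 CPM. Vil1 had 4 and 2 counts in control and 25, 8 and 32 in OA-AP. It was the 1 gene of this list tested (log2 fold change 2.04) and was called higher only with library totals. Muc2 had 6 and 5 counts in control and 3, 3 and 4 in OA-AP, and Lgr5 had at most 2 in a library. The 8 neutrophil markers summed to 1.03 to 1.89 CPM in control and 3.60 to 101 CPM in OA-AP. None of the 6 tested was called by edgeR (1 at an unadjusted p under 0.05). The part of islet, duct and neutrophil RNA in the Reg changes was not tested.

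Reg3a, Reg3b and Reg3g had similar profiles over the 5 pancreas libraries, mostly through their similar change between the groups. The root mean square difference between their centred log2 CPM profiles was 0.28 to 0.35. It was 1.14 to 1.40 from Reg2 to each of them, 2.36 to 2.59 from Reg3d, and 4.10 between Reg1 and Reg3a. Among 5693 other genes (those whose log2 CPM averaged 3 or more), the nearest to each of the 3 was Lrg1, a secreted acute phase glycoprotein (0.24 to 0.26), and the next places were held by Lcn2, an iron-sequestering antimicrobial lipocalin, and Serpina3n, an acute phase protease inhibitor, with Serpina3n ahead of Lcn2 for Reg3b only. Each of the 3 was nearer to Lrg1 than to any other member, so the likeness was not particular to the family. Lrg1 stood at 7.71 ± 0.230 CPM in control (SD, n = 2) and 1800 ± 537 CPM in OA-AP (SD, n = 3). The genes nearest to Reg2 were Pdk4, a kinase that restrains pyruvate oxidation (0.38), Acot1, an acyl-CoA thioesterase (0.40), and Cdkn1a, the cell cycle inhibitor p21 (0.45). Reg3d was nearest to Ucp2 (0.13), Tnfrsf21 (0.13) and Gas2l1 (0.16), and Reg1 to Fryl (0.04), Snu13 (0.05) and Nfyb (0.06). With 5 libraries in 2 groups, such a likeness mostly describes the size of the change between the groups. Within a group the Reg3 genes did not always move together. From OA-AP replicate 1 to replicate 2, Reg3b went from 9801 to 11070 CPM and Reg3g from 1707 to 1493 CPM.

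Genes of the IL-6 and IL-22 family pathway through STAT3 were read next, as the signalling best known to act upstream of Reg3 genes. In the pancreas 38 of 47 were tested, of which edgeR called 21 higher and 3 lower, and the median log2 fold change was 1.20 beside 0.04 for all tested genes. Calls over all tested genes came to 16.2% higher and 13.5% lower. Without either control library, when a single control remained, fewer genes of the list were called higher, and fewer genes were called among all tested genes too. By role, 1 of 4 ligands, 6 of 8 receptors, 2 of 7 kinases and transcription factors, 4 of 7 feedback inhibitors and 8 of 12 targets were higher.

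Il22 had 0 counts in every library of both tissues. Il6 had 1 and 0 counts in control pancreas and 14, 4 and 241 in OA-AP, which did not pass the test (edgeR adjusted p = 0.188) and varied widely among the OA-AP libraries. The receptor genes were clearer. Il22ra1, the signalling chain of the IL-22 receptor, had 173 and 149 counts in control and 1632, 1383 and 1610 in OA-AP, a log2 rise of 2.48 (SE 0.14, edgeR adjusted p = 4.28e-05). Il6ra, the IL-6 receptor, rose by 2.32 (SE 0.17, edgeR adjusted p = 0.000121).

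Stat3 itself had 257 and 201 counts in control and 3149, 2354 and 4459 in OA-AP, a log2 rise of 3.08 (SE 0.26, edgeR adjusted p = 0.000252). Socs3, which restrains the pathway, rose by 4.14 (SE 0.86, edgeR adjusted p = 0.0236), and its 564 to 2442 counts in OA-AP compared with 33 and 50 in control. Among the genes called lower were the kinase gene Pim3 (-1.87) and Myc (-0.74), the latter named after its value was seen. Of the proteins proposed to bind Reg lectins, the receptor kinase gene Egfr was higher (1.57, SE 0.16, edgeR adjusted p = 0.000464), the exostosin-like gene Extl3 had a value of -0.26 (edgeR adjusted p = 0.255), and the hyaluronan receptor gene Cd44 a value of 2.11 (edgeR adjusted p = 0.114).

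Of 34 other secreted antimicrobial and acute phase genes, 21 were tested in the pancreas, and edgeR called 10 higher and 0 lower. Over all tested genes 16.2% were called higher and 13.5% lower. The median log2 fold change was 3.28, beside 0.04 for all tested genes. Ang, an antimicrobial ribonuclease, rose by 2.28 (SE 0.19), Serpina3n by 8.16 (SE 0.57) and the serum amyloid gene Saa3 by 5.62 (SE 0.56). Serpina3m had 0 counts in both control libraries and 109 to 176 counts in OA-AP, so it passed the filter on low counts through OA-AP alone. When 10 counts in every library were required, only 7 genes of this list were left to test, and 2 of them were called higher. Summed over all 34 genes, the list reached 574 to 849 CPM in OA-AP. The lowest CPM of any Reg gene there was 1493 (Reg3g), and these levels were not compared per length. Within it, Serpina3n stood at 81.2 ± 29.1 CPM and Saa3 at 11.6 ± 3.90 CPM in OA-AP (SD, n = 3). Lrg1, an acute phase gene outside the list, reached 1800 ± 537 CPM (SD, n = 3). The remaining family gene Reg4 had 0 counts in all 5 pancreas libraries.

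In adipose tissue the Reg genes were present in 1 library only. Control replicate 2 held 5696 counts of Reg1, 5901 of Reg2, 639 of Reg3a, 2020 of Reg3b, 321 of Reg3d and 75 of Reg3g, or 14652 Reg counts in all (0.0649% of the library). The other 5 adipose libraries held 3 Reg counts among 116909133 counts, with no member above 1 count in a library. That is at or under the floor of 3 counts per library, so OA-AP and the remaining control libraries could not be told apart at this depth.

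No member passed the filter on low counts in adipose, so none was among the 15839 genes tested there, of which 25.1% were called. With the filter removed, log2 fold changes ran from -13.90 (Reg2) to -7.58 (Reg3g) with edgeR adjusted p from 0.254 to 0.505, none of the 6 had an unadjusted p under 0.05, and DESeq2 gave no adjusted p. These fitted values rest on counts of 0 and on control replicate 2, and they give no bound on a change. The share of Reg counts differed by -0.0216 percentage points between OA-AP and control with all libraries and by 1.36e-06 points without control replicate 2 (two-sided exact permutation test with all libraries, p = 0.9).

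The acinar enzymes were found in the same library. Adipose control replicate 2 held 216402 acinar counts, against 234 to 423 in the other 5, in which the elastase gene Cela1 alone made up 59.8% to 76.1%. Among the defining markers, Ctrb1 had 34530 counts, Pnlip 18447 and Cpa1 15018 in that library, and at most 24, 15 and 11 in any other adipose library. The islet hormone genes Ins1, Gcg and Iapp had 0 counts in it and Ins2 had 1. Reg counts per 1000 acinar counts were 67.7, compared with 13.1 and 14.5 in control pancreas and 78.2 to 85.8 in OA-AP pancreas.

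The make-up of the Reg counts in this control library was unlike that of control pancreas. Reg1 made up 38.9% of them (exact 95% interval 38.1% to 39.7%, counting error only), against at least 95.2% in control pancreas. Reg2 stood at 1.04 counts per Reg1 count, within the 0.782 to 1.11 of OA-AP pancreas and far from the 0.0166 and 0.0228 of control pancreas. Reg3b at 0.355 per Reg1 count lay between the control values (0.00360 and 0.00412) and the OA-AP values (0.856 to 1.04). The lowest relative level was that of Reg3g, with 0.0132 per Reg1 count against 0.115 to 0.181 in OA-AP pancreas and 0.000460 and 0.000758 in control pancreas. The 4 Reg3 genes together came to 0.263 counts per count of Reg1 and Reg2, between 0.0261 and 0.0267 in control and 0.676 to 0.821 in OA-AP pancreas. With 1 such library these are values of that library, and how its acinar and Reg RNA arose was not tested.

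In adipose 41 genes of the STAT3 pathway list were tested, with 22 called higher and 1 lower by edgeR (23 and 1 without control replicate 2). The median log2 fold change was 0.70 beside -0.01 for all tested genes. Of all 15839 genes tested in adipose, 12.1% were called higher and 13% lower. Il6 had 2, 6 and 4 counts in control and 208, 85 and 324 in OA-AP (log2 rise 6.06, SE 0.69, edgeR adjusted p = 0.00156). Socs3 rose by 3.87 (SE 0.17, edgeR adjusted p = 0.000179) and Stat3 by 1.36 (SE 0.15, edgeR adjusted p = 0.00107). Il22ra1, by contrast, was near 1 CPM in both groups, with 13, 15 and 35 counts in control and 36, 9 and 19 in OA-AP (edgeR adjusted p = 0.539). Of the proposed Reg binding proteins, Cd44 (2.26, SE 0.26) and Egfr (0.75, SE 0.16) were higher and Extl3 had a value of -0.05.

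Of the other antimicrobial and acute phase genes, 25 were tested in adipose, 11 were called higher and 2 lower by edgeR, as many as without control replicate 2, and the median log2 fold change was 1.39. Serpina3n, near 0 in control pancreas, stood at 484 ± 72.3 CPM in control adipose (SD, n = 3) and 8069 ± 1081 CPM in OA-AP (SD, n = 3), a log2 rise of 4.06 (SE 0.21, edgeR adjusted p = 0.000179). The pentraxin gene Ptx3 rose by 7.84 (SE 0.55) and the calprotectin subunit gene S100a8 by 4.65 (SE 0.28). All 6 neutrophil markers tested in adipose were called higher, against 12.1% of all genes tested there. The whole list of 8 had a summed level of 7.05 to 12.8 CPM in control and 179 to 198 CPM in OA-AP.

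Whether the change of a member differed between the tissues was put to the tissue by condition term of a fit over all 11 libraries. The members passed the filter of that fit through the pancreas, since 5 of the 6 adipose libraries held at most 1 count of each. At an adjusted p under 0.05 this term was called for 3 of 6 members, against 21.3% of the 17046 genes tested. They were Reg3a, Reg3b and Reg3g, with edgeR adjusted p of 0.0322, 0.0204 and 0.0153. The terms of Reg1, Reg2 and Reg3d did not pass (edgeR adjusted p = 0.0967, 0.0572 and 0.0844). The count was 0 without adipose control replicate 2 and also without pancreas control replicate 1 or 2, and 6 without adipose control replicate 1 or 3. It was also 0 with the replicate number as a block. Here each block joined the pancreas and adipose libraries of the same condition and replicate number. Whether such libraries came from the same mouse is not known here, and the main fit treated them as independent. The tissue comparison of the Reg genes thus rests on single libraries and is not read as a difference between the tissues.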

How the data were processed

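RNA from mouse pancreas and epididymal adipose tissue was sequenced as 150 bp paired reads. Reads were trimmed with Trim Galore 0.6.6, checked with fastp 0.20.1, mapped to GRCm38 with STAR and counted per gene with featureCounts 2.0.1 by the authors, who deposited raw counts per gene without pooling replicates. Strand, multi-mapping and annotation settings are not given in the sources used here, so reads shared by similar or overlapping genes cannot be assigned with certainty.

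Groups followed the labels. Each tissue was fitted on its own with edgeR 4.0.16 (filterByExpr, TMM, robust quasi-likelihood F test, Benjamini-Hochberg over all genes tested), and genes were called at an adjusted p under 0.05 and a fold of at least 1.5. The tissue by condition term was fitted over all 11 libraries. SEs were derived from the F statistic. Shares and ratios were compared by two-sided exact permutation tests, for which the smallest p is 0.1 in either tissue. A floor of 3 counts was used, and it and the binomial (Clopper-Pearson) interval cover counting error only. Alternatives were DESeq2 1.42.0, other scalings and filters, single libraries left out, and the replicate number as a block. In the tissue by condition fit the block was condition with replicate number, shared by both tissues. Scripts were tested on simulated data.

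The members and gene lists were chosen with earlier results of these data known. Named genes were all members, up to 4 called genes with the smallest p from each list and tissue, Reg4, Il6, Il22, Il22ra1, Stat3, Socs3 and Extl3, cluster neighbours, and for each member the 3 genes closest in centred log2 CPM. Replicate numbers did not pair the libraries of the 2 groups (correlations of deviations from -0.16 to 0.06). Protein sequences were not used here. Some genes of the lists are not reported here by name.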

Additional observations from a re-analysis of the deposited data

Results flagged for a closer look

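The tissue by condition term of edgeR passed its threshold for 3 members, but it rests on single libraries and is not read as a difference between pancreas and adipose. On the log2 scale the term was 18.26 for Reg3a (SE 4.69, adjusted p = 0.0322), 17.85 for Reg3b (SE 4.56, adjusted p = 0.0204) and 14.73 for Reg3g (SE 3.12, adjusted p = 0.0153). These sizes are fitted against adipose OA-AP libraries with at most 1 count, depend on the prior count and are no bound. Without adipose control replicate 2, the library with acinar and Reg counts, the terms were 8.20, 6.21 and 7.80 and none passed (edgeR adjusted p from 0.993 to 1). None passed with the replicate number as a block, or without either pancreas control library.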

How the results depend on the processing

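The count of 5 members called higher in pancreas was the same under all 13 alternatives, including the replicate block (5). In adipose no member was tested except with the filter removed, where 0 of 6 were called, so the other alternatives say nothing there. Reg1 reversed to 0.52 with library totals alone. The rise of the Reg share, 3.78 percentage points, was 8.98 over counts outside the acinar list and members, 3.35 without Reg1, and 3.62 to 3.87 with 1 library left out. The rise per 1000 acinar counts, 67.4, was 117 against chymotrypsins, elastases and carboxypeptidases, 361.0 against amylase, lipases and esterases, and 65.2 to 69.0 with 1 library left out. In adipose, the share difference ran from -0.0324 to 1.36e-06 with 1 library left out and the difference per 1000 acinar counts, -22.0, from -33.8 to 0.0526. Against amylase, lipases and esterases the latter was -105. The reversals came without control replicate 2, whose counts make up 99.98% of all adipose Reg counts. The 3 members with a tissue difference became 5 with 10 counts in every pancreas library, 0 with the replicate block, and 0 to 6 with 1 library left out. Apart from the left-out libraries, the causes were not tested. Genes called in pancreas numbered 3834, and 6349 with library totals alone, 1687 and 1495 without control replicate 1 or 2. With 2 control libraries, Reg3a and Reg3g rest on 70 to 105 control counts each, and depth is no limit for the other members in pancreas. In adipose, levels under 3 counts per library could not be detected.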
